A study of Mus musculus with 48 samples.

Results

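These data compared whole cerebellum of 12-week-old Atxn1-154Q/2Q knock-in (KI) mice with that of wild-type (WT) littermates. The samples were 6 RNA-sequencing libraries, 3 KI and 3 WT, of 48 libraries in the series, and the comparison covered 13263 genes, those that have a symbol and average 0.5 FPKM or more in KI as well as in WT. FPKM counts sequenced fragments relative to the length of the transcript and the mapped fragments of that library. All mice were male. The KI allele places an expanded CAG repeat of 154 glutamine codons into 1 copy of the mouse Atxn1 gene on a pure C57BL/6J background, so that ataxin-1 is made under its own regulation in every cell that normally makes it, and the other copy carries the 2Q mouse allele. WT littermates carried no expanded allele and shared the background, age and sex. The labels give no treatment. A second set of 6 KI cerebellum libraries, 3 KI and 3 WT at 5 weeks, was used for comparison across ages.

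Ataxin-1 is a nuclear protein that acts in complexes with transcriptional repressors, among them Capicua, and expansion of its glutamine tract causes spinocerebellar ataxia type 1. Purkinje cells, the only output neurons of the cerebellar cortex, are the cells best known to suffer in this disease. They receive excitation from granule cells through parallel fibres and from the inferior olive through climbing fibres, are inhibited by molecular layer interneurons, and turn these inputs into simple and complex spikes through glutamate receptors, calcium stores and potassium channels. Bulk tissue also holds granule cells, interneurons, Bergmann glia, oligodendrocytes and vessels, so fewer cells of a type and less RNA per cell cannot be told apart here.

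The 6 libraries correlated at 0.979 to 0.994 over their 15 pairs, and none were identical. Read totals are not part of the FPKM values. The steps between low values put the relative depth at 1.000 to 1.347 in WT and 1.248 to 1.772 in KI libraries, on a scale where the shallowest library is 1, so the KI libraries were on the whole the deeper ones. The number of genes at 1 FPKM or above ranged from 12325 to 12674. Defining markers of cerebellum were abundant. Pcp2, found in Purkinje cells, lay between 477 and 672 FPKM, and the granule cell receptor subunit Gabra6 lay between 215 and 338 FPKM. Genes of neighbouring tissue differed between libraries. The summed FPKM of 28 genes marking neurons of the brainstem and midbrain was 52.9 to 129.7 in WT and 15.1 to 21.2 in KI libraries, and WT replicate 1 stood apart with the highest sum and with 2.66 FPKM of Hoxa5 and 1.35 FPKM of Hoxb3. KI replicate 1 held 24.4 FPKM in sum of 16 choroid plexus genes, against 460 to 1787 in the other libraries, with 8.86 FPKM of the plexus transport protein Ttr. Atxn1 itself was read at 9.43, 9.45 and 9.51 FPKM in WT and 9.79, 9.53 and 10.6 FPKM in KI cerebellum (log2 fold change 0.07 ± 0.06 SE, limma adjusted p = 0.457). Both alleles are counted together, so this level does not check the repeat.

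At 12 weeks more genes were down-regulated than up-regulated in KI cerebellum, and the decreases were the larger changes. Of 13263 genes, 764 (5.76%) passed an adjusted p of 0.05 in limma with Benjamini-Hochberg adjustment and are called changed here, 489 lower (3.69%) and 275 higher (2.07%). The median size of a called change on the log2 scale was 0.48 for decreases and 0.35 for increases, so most were well under 2-fold. Decreases of at least 2-fold numbered 80 and increases of that size numbered 6. All 764 had every KI library outside the WT range, a pattern held by 32.1% of the genes tested, with 15.1% below and 17.1% above. Among called genes, the 12 largest decreases were Nrgn, Sst, Tcf7l2, Necab2, Kcnip2, Camkv, Rasgrf2, Ndst4, Asic4, Enc1, Cpne6 and Kcnc2. The 8 largest increases among called genes were Mndal, Ifi203, Slc44a5, Irf7, Synpr, Pde3a, Slc2a9 and Adamts18. Genes averaging under 0.5 FPKM in KI or in WT were not tested, so larger changes can be missing from both lists. Tfap2d, for example, was left out with a mean of 3.63 FPKM in WT and 0.0401 FPKM in KI. Leaving out 1 library moved the number called to between 104 (without KI replicate 1) and 1225 (without WT replicate 1).

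The largest called decreases belonged to genes that also varied strongly between 5-week libraries of the same genotype. Nrgn encodes neurogranin, a calmodulin-binding protein of forebrain neurons (chr9:37544493-37552745, mm10). At 12 weeks it measured 61.3, 40.2 and 55.8 FPKM in WT and 3.58, 2.27 and 2.69 FPKM in KI cerebellum. It was 17.8-fold lower in KI (log2 fold change -4.16 ± 0.19 SE, limma adjusted p = 0.000172). At 5 weeks it measured 61.1, 11.9 and 2.35 FPKM in WT and 49.7, 2.09 and 16.0 FPKM in KI, so libraries of either genotype spanned the whole range then. Sst, the neuropeptide somatostatin, measured 48.8, 20.3 and 30.1 FPKM in WT and 3.25, 2.43 and 4.03 FPKM in KI at 12 weeks. Its 5-week values were 26.9, 5.51 and 2.1 FPKM in WT and 20.8, 2.77 and 8.88 FPKM in KI. Tcf7l2, a Wnt pathway transcription factor abundant in thalamus and midbrain, measured 18.2, 11.3 and 15.7 FPKM in WT and 1.56, 1.47 and 1.73 FPKM in KI at 12 weeks. Its 5-week values were 15.6, 3.31 and 1.75 FPKM in WT and 10.8, 1.51 and 7.18 FPKM in KI. In these 3 genes, replicate 1 was the highest library of both genotypes at 5 weeks. Without WT replicate 1 at 12 weeks the log2 fold changes were -4.03 for Nrgn and -2.92 for Sst.

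**Figure D1:**
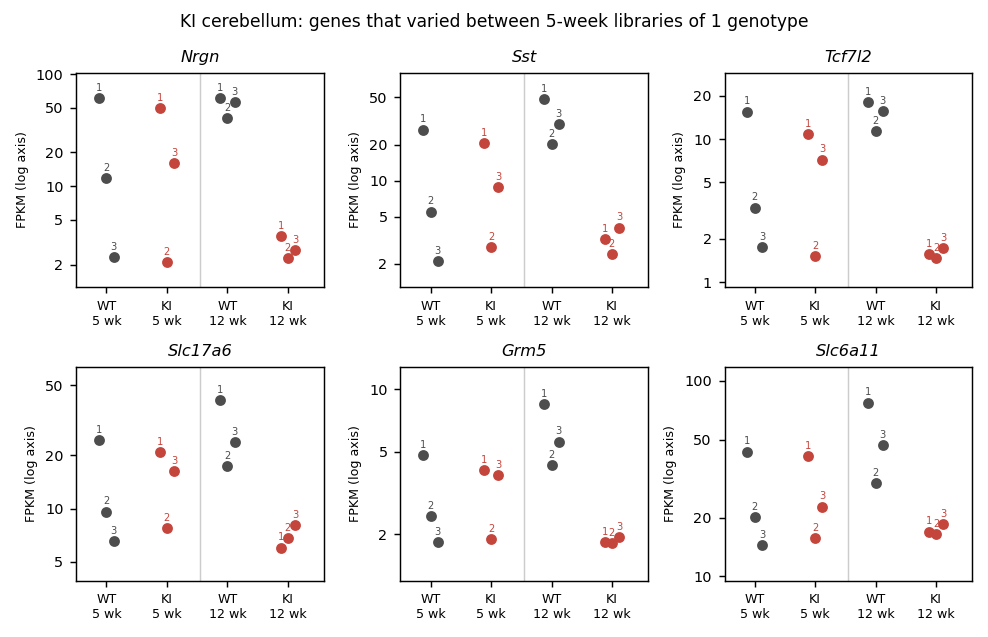
FPKM on a log axis of 6 genes in each WT (grey) and KI (red) library at 5 and 12 weeks, each point marked with its replicate number. At 12 weeks every KI library lies below every WT library, while at 5 weeks both genotypes spread over a wide range, as for Nrgn from 2.09 to 61.1 FPKM.

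To describe this spread, genes were gathered that varied with Tcf7l2 across the 6 libraries of 5 weeks after removal of the genotype means, with a correlation of at least 0.95 and a standard deviation of at least 1 on the log2 scale. Tcf7l2 was picked as the reference after its 12-week values were seen. The 32 genes found included the neuropeptides Sst, Vip and Tac1, the dopamine receptor Drd2, the GABA receptor subunit Gabra5, the glycine receptor subunit Glra3 and the homeodomain factors Lhx9, Six3 and Shox2. Vip measured 2.37, 1.51 and 1.51 FPKM in WT and 0.0471, 0 and 0.0360 FPKM in KI at 12 weeks. In all 32 the 3 KI libraries lay below the 3 WT libraries at 12 weeks, a pattern held by 15.1% of the genes tested. All 32 were chosen to vary with Tcf7l2, itself picked with its 12-week values known, so they are not 32 separate results. In 0 of 32 did the genotypes separate at 5 weeks. The 5-week count follows in large part from choosing genes that spread widely within genotype in those same libraries, so it is not read as a result. A mean under 0.5 FPKM in KI kept 20 of them out of the test. The other 12 were all lower in KI and 11 were called, beside 3.69% of all genes tested called lower.

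The mean log2 level of the 32 genes was 2.59, 1.43 and 1.84 in the 12-week WT libraries and -0.83, -1.10 and -0.57 in the KI libraries. At 5 weeks it was 1.95, 0.04 and -1.13 in WT and 1.62, -1.06 and 0.97 in KI. The 12-week KI libraries were thus near the lowest libraries of 5 weeks and the 12-week WT libraries near the highest, although the tables of the 2 ages were normalized separately. Of the called decreases measured at both ages, 105 of 480 (21.9%) had a correlation of at least 0.9 with Tcf7l2 at 5 weeks, against 4 of 268 called increases (1.49%) and 495 of 12868 genes tested (3.85%). Of the 12 largest decreases 11 did. Tcf7l2 itself, with a correlation of 1 by definition, counts among these 11 and among the 105 and the 495. The brainstem and midbrain sum at 5 weeks was 67.0, 21.4 and 15.3 FPKM in WT and 53.5, 17.2 and 35.4 FPKM in KI. This sum shares Sst and Tac1 with the 32 genes, and its member Slc17a6 had a correlation of 0.996 with Tcf7l2. Its likeness to their level is therefore partly built in and is no separate result. At 12 weeks genotype and this shared level cannot be told apart from these 6 libraries alone.

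The 5-week libraries allow a fit in which this level is a covariate. One limma fit over all 12 libraries, with a mean for each age and genotype, called 370 of 12832 genes at 12 weeks (131 higher and 239 lower in KI). With the mean log2 level of the 32 genes added as a covariate, 62 were called (0.483%), 11 higher and 51 lower. With the level entered on the linear FPKM scale instead, 141 were called (1.1%), 26 higher and 115 lower. Of the 764 genes, 747 entered these fits, and 57 of them were called with the same direction under both covariates, 8 higher and 49 lower. A correlation of at least 0.9 with Tcf7l2 at 5 weeks was held by 0 of those 49 decreases and 1 of the 8 increases (Chchd7), which follows in large part from building the covariates on genes of such correlation. The covariates rest on how the 32 genes varied in 6 libraries and were chosen after the 12-week values were known. They describe which calls remain once this level is entered and do not measure tissue content. At 12 weeks the mean log2 level did not overlap between genotypes (1.43 to 2.59 in WT, -1.10 to -0.57 in KI). Its slope therefore comes from differences within groups, and the fits cannot show which 12-week changes depend on it. Nrgn, Sst and Tcf7l2 are themselves among the 32 genes, so a smaller fold change of theirs in these fits is fixed by construction and is not read as a result. A lost call does not by itself mean a smaller change, since the standard errors of these fits are larger.

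The comparison was repeated under other filters, pseudocounts and scalings, without the variance trend, with a replicate block, with each library left out, and over 12 libraries with and without the covariates. In all of these 30 genes were called, 26 lower and 4 higher. Only genes tested under every setting could be among them. Of the 764 called genes, 646 entered the fit with a filter of 2 FPKM, and 747 the fits over 12 libraries. Mndal, Slc44a5 and Car9 averaged under 2 FPKM in WT or in KI, so their absence from the 30 is not a failed test. Each was called in every fit that left out 1 library. The 26 decreases included growth factor and signalling genes (Igfbp5, Fgf1, Gdf11, Adrbk2, Camk1d, Ywhah, Plcb3, Daam2), the metabolic enzymes Alad and Aldoc, the taurine transporter Slc6a6, and genes of synapse and membrane (Clstn2, Gabbr1, Kctd12, Kcnip1, Doc2b, Stac). The others were Arhgap20, Il20rb, Mdfi, Nell1, Pcp4, Plk5, Ppp1r16b, Spag5 and Trabd2b.

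Igfbp5 encodes a secreted protein that binds insulin-like growth factors (chr1:72858065-72874865, mm10). At 12 weeks it measured 39.7, 45.3 and 43.2 FPKM in WT and 16.5, 18.8 and 16.7 FPKM in KI cerebellum. All KI libraries lay far below all WT libraries, a 2.46-fold decrease (log2 fold change -1.30 ± 0.07 SE, limma adjusted p = 0.000262). Igfbp5 was also the only gene of 13320 called at 5 weeks (0.00751%), where it measured 52.3, 55.4 and 53.6 FPKM in WT and 24.2, 28.2 and 28.9 FPKM in KI (log2 fold change -0.99 ± 0.08 SE, adjusted p = 0.0433). That call at 5 weeks was lost under several settings. Of the 13 tested genes of the insulin-like growth factor axis, Igfbp5 alone was called at 12 weeks, beside 5.76% of all genes tested. The median log2 fold change of the 13 was 0.08. The abundant ligand Igf2 measured 53.6, 46.5 and 33.1 FPKM in WT and 33.2, 38.8 and 52.5 FPKM in KI, with overlapping groups.

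Mdfi, which encodes an inhibitor of myogenic basic helix-loop-helix factors, lies at chr17:47815328-47834691 (mm10). It measured 7.68, 8.61 and 8.55 FPKM in WT and 2.80, 2.85 and 2.88 FPKM in KI, 2.84-fold lower (log2 fold change -1.51 ± 0.07 SE, limma adjusted p = 0.000172). Plk5, a polo-like kinase without mitotic function, measured 23.1, 27.0 and 30.5 FPKM in WT and 9.28, 8.50 and 11.3 FPKM in KI (log2 fold change -1.46 ± 0.13 SE). Il20rb, an interleukin receptor subunit, measured 11.7, 14.7 and 16.1 FPKM in WT and 5.79, 6.5 and 5.93 FPKM in KI (log2 fold change -1.19 ± 0.11 SE). Clstn2, a calsyntenin of the postsynaptic membrane, measured 16.0, 18.9 and 18.6 FPKM in WT and 10.1, 9.43 and 8.90 FPKM in KI (log2 fold change -0.90 ± 0.08 SE). In each of these the highest KI library lay below the lowest WT library. Car9, a membrane carbonic anhydrase, was the largest decrease called under both covariates. It measured 2.29, 2.86 and 3.25 FPKM in WT and 0.684, 0.511 and 0.687 FPKM in KI (log2 fold change -1.99 ± 0.17 SE, limma adjusted p = 0.00225).

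The 4 increases called every time included Synpr, Marcks and Parp12. Synpr encodes synaptoporin, a vesicle membrane protein (chr14:13284780-13615469, mm10). It measured 30.8, 32.4 and 33.2 FPKM in WT and 64.3, 63.7 and 67.6 FPKM in KI at 12 weeks, 2.03-fold higher in KI (log2 fold change 1.02 ± 0.04 SE, limma adjusted p = 0.000172). At 5 weeks it measured 34.5, 37.6 and 36.3 FPKM in WT and 49.1, 54.5 and 53.3 FPKM in KI, again without overlap. Marcks, an actin-regulating substrate of protein kinase C, measured 47.8, 48.0 and 52.7 FPKM in WT and 85.5, 76.9 and 85.6 FPKM in KI (log2 fold change 0.74 ± 0.06 SE, adjusted p = 0.00225). In both genes the lowest KI library was well above the highest WT library. Among the other large increases, the choline transporter-like gene Slc44a5 measured 1.08, 1.01 and 1.25 FPKM in WT and 2.72, 2.73 and 2.48 FPKM in KI, and was called under both covariates. The phosphodiesterase Pde3a measured 3.47, 4.27 and 3.57 FPKM in WT and 7.97, 7.37 and 7.69 FPKM in KI. Its log2 fold change went from 1.01 to 0.42 with the log2 covariate and 0.46 with the linear one, and the call was lost. The urate transporter Slc2a9 had 1.00 in the main fit and 0.87 with either covariate, and the metalloprotease Adamts18 0.97 and then 0.66 and 0.62. Neither was called with a covariate.

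**Figure D2:**
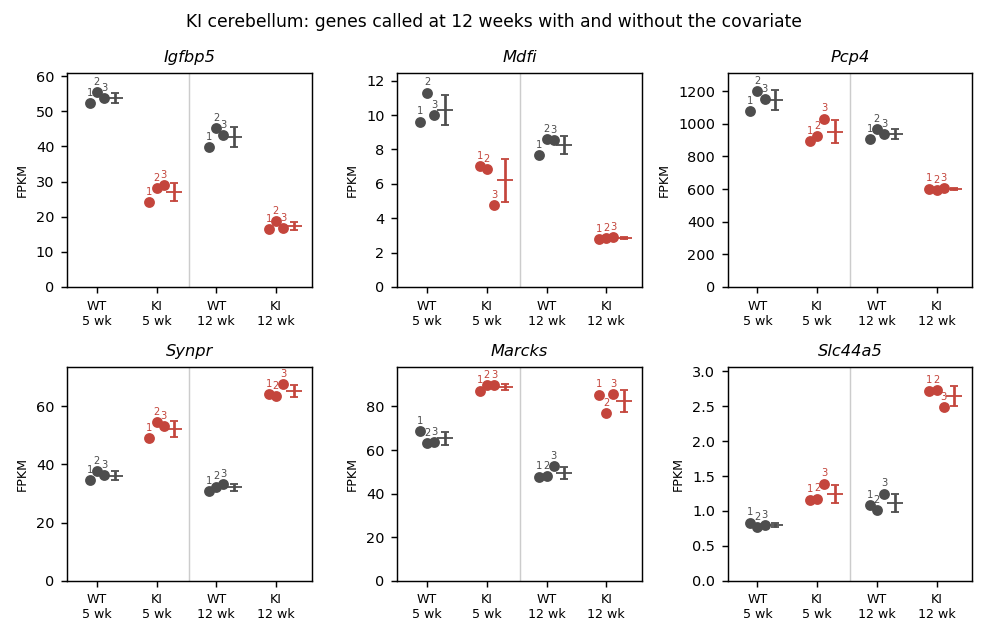
FPKM of 6 genes called at 12 weeks with and without the covariates, in each WT (grey) and KI (red) library at 5 and 12 weeks, with the mean ± SD (n = 3) beside the numbered points. Igfbp5, Mdfi and Pcp4 are lower and Synpr, Marcks and Slc44a5 higher in every KI library than in every WT library of the same age.

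Purkinje cell genes were lower in KI cerebellum at 12 weeks. Of 21 tested, 20 had a negative log2 fold change (median -0.29, against 0.01 over all genes tested). All KI libraries lay below all WT libraries in 11, against 15.1% of all genes tested. Called were 6, all lower, against 3.69% of all genes tested. Pcp4, a calmodulin regulator (chr16:96467606-96525793, mm10), measured 908, 966 and 936 FPKM in WT and 603, 593 and 605 FPKM in KI (log2 fold change -0.64 ± 0.04 SE, limma adjusted p = 0.00145). Rgs8, a regulator of G protein signalling, measured 234, 282 and 274 FPKM in WT and 170.2, 183 and 162 FPKM in KI (log2 fold change -0.61 ± 0.08 SE, adjusted p = 0.00882). Pcp2, another G protein modulator, measured 612, 672 and 649 FPKM in WT and 514, 512 and 477 FPKM in KI (log2 fold change -0.36 ± 0.05 SE). The Notch ligand Dner (-0.33) and the transcription factors Lhx5 (-0.37) and Foxp2 (-0.80) were the other called members. Foxp2 had a correlation of 0.99 with Tcf7l2 at 5 weeks and was not called with either covariate. Long-standing markers that did not pass include Calb1, calbindin, at 359, 452 and 421 FPKM in WT and 324, 359 and 324 FPKM in KI (limma adjusted p = 0.0987). Itpr1, the calcium release channel of the endoplasmic reticulum, measured 362, 455 and 439 FPKM in WT and 370.5, 393 and 346 FPKM in KI (adjusted p = 0.292). The summed level of the 21 genes was 3795 to 4479 FPKM in WT and 3118 to 3351 FPKM in KI. Leaving out 1 library gave 1 to 18 called members, the most without WT replicate 1, the lowest WT library of this sum. With the covariates all 20 members in the fit had a negative log2 fold change, with medians of -0.43 (log2) and -0.51 (linear), and 2 (Pcp4 and Rgs8) and 7 were called.

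Calcium handling showed changes in both directions. Of 34 tested genes for calcium stores, pumps, buffers and calcium-dependent kinases, 4 were higher, 4 lower and 26 were not called. Over all genes tested, 2.07% were called higher and 3.69% lower. Leaving out 1 library gave 2 (without KI replicate 1 or 2) to 19 called members (without WT replicate 1). Plcb3, a phospholipase C that couples glutamate receptors to calcium release (chr19:6938070-6970243, mm10), measured 14.8, 17.3 and 16.9 FPKM in WT and 8.62, 8.83 and 8.87 FPKM in KI (log2 fold change -0.89 ± 0.07 SE, limma adjusted p = 0.00179). It was the only member called with the log2 covariate, and with the linear one 6 were, all lower. Camk2a, the alpha subunit of calcium/calmodulin kinase II, measured 36.6, 28.0 and 31.4 FPKM in WT and 15.9, 17.1 and 15.3 FPKM in KI (log2 fold change -0.98 ± 0.09 SE). The pump Atp2a2 (-0.28) and the kinase Camkk1 (-0.47) were lower too. Calb2, calretinin, a buffer of granule and unipolar brush cells, measured 209, 279 and 274 FPKM in WT and 439, 412 and 419 FPKM in KI (log2 fold change 0.75 ± 0.11 SE, adjusted p = 0.0119). Ryr2 (0.37), Atp2b1 (0.22) and Slc8a3 (0.39), which release or extrude calcium, were the other members higher. Among 20 tested voltage-gated calcium channel genes, 4 were higher and 3 lower. The pore subunits Cacna1c, Cacna1d and Cacna1e rose by similar amounts (0.32, 0.31 and 0.32 on the log2 scale), whereas the auxiliary subunits Cacnb2 (-0.48), Cacng3 (-0.57) and Cacna2d2 (-0.29) fell and Cacng4 rose (0.40). None of the 20 was called with the log2 covariate, and 2 were, both lower, with the linear one. Fold changes differed in how they responded, with Cacnb2 at -0.48 and Cacng4 at 0.62 but Cacna1c at 0.09 with the log2 covariate. With 1 library left out, 1 to 8 members were called.

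Voltage-gated potassium channel genes, which set firing rate and spike shape, were called more often lower than higher. Of 36 tested, 12 were lower and 1 was higher, against 3.69% and 2.07% of all genes tested. The median log2 fold change was -0.31, and 23 had all KI libraries below the WT range, against 15.1% of all genes. Leaving out 1 library gave 3 to 18 called members, with 3 or 4 without any of the KI libraries or WT replicate 3, and 2 and 3 were called with the covariates. Kcnip1, an accessory subunit that modulates A-type currents, measured 29.0, 28.4 and 26.9 FPKM in WT and 17.6, 20.1 and 18.0 FPKM in KI (log2 fold change -0.60 ± 0.06 SE, limma adjusted p = 0.00351). Its relative Kcnip4 measured 65.7, 74.0 and 71.2 FPKM in WT and 55.2, 56.0 and 52.4 FPKM in KI (log2 fold change -0.36 ± 0.05 SE). Both were called under each covariate. Kcnma1, the pore of the large-conductance calcium-activated channel, measured 36.8, 39.9 and 38.7 FPKM in WT and 31.5, 32.4 and 28.9 FPKM in KI (log2 fold change -0.32 ± 0.06 SE, adjusted p = 0.0215). Kcna6 (-0.37), Kcng4 (-0.36) and Kcnh7 (-0.64) were among the others lower. The list's 3 largest decreases, Kcnip2 (-2.43), Kcnc2 (-2.07) and Kcnh5 (-2.02), each had a correlation of at least 0.9 with Tcf7l2 at 5 weeks and were not called with the covariates, where Kcnip2 had -0.83 ± 0.38 SE on the log2 scale. Kcnc2 is 1 of the 32 genes. The 1 increase, Kcnb2, measured 1.90, 1.52 and 1.29 FPKM in WT and 2.71, 2.37 and 2.84 FPKM in KI. Of 11 tested sodium channel genes, 3 were lower, namely Scn1a (-0.28), Scn4b (-0.73) and Scn3b (-1.20), and Scn3b changed sign with the covariates (0.17 in both).

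Some receptors for the main transmitters fell. Both subunits of the GABA-B receptor were lower. Gabbr1 measured 174, 178 and 183 FPKM in WT and 141, 141 and 136 FPKM in KI (log2 fold change -0.35 ± 0.04 SE, limma adjusted p = 0.00461), and Gabbr2 measured 62.1, 67.8 and 69.5 FPKM in WT and 54.8, 54.4 and 49.0 FPKM in KI (log2 fold change -0.33 ± 0.06 SE, adjusted p = 0.0251). Kctd12, an auxiliary protein of this receptor, measured 71.9, 80.2 and 76.8 FPKM in WT and 45.6, 45.8 and 47.7 FPKM in KI (log2 fold change -0.72 ± 0.05 SE, adjusted p = 0.00145). None of the 3 genes had overlapping groups. The subunits Gabra4 (-0.27) and Gabrg3 (-1.18) brought the called GABA receptor genes to 4 of 15, all lower, beside 3.69% of all genes called lower. Gabrg3 had a correlation of 0.99 with Tcf7l2 at 5 weeks and a log2 fold change of -0.19 with the log2 covariate. With the covariates 1 and 2 of the 15 were called. Of 10 metabotropic glutamate receptor and Homer genes, 4 were lower. Grm4, the presynaptic receptor of parallel fibres, measured 81.5, 104 and 111 FPKM in WT and 69.3, 57.8 and 62.0 FPKM in KI (log2 fold change -0.64 ± 0.12 SE, adjusted p = 0.0253). Grm3 (-0.42) and Grm7 (-0.39) were also lower, as was Grm5 (-1.61), which tracked Tcf7l2 at 5 weeks with a correlation of 1.00. Of 17 ionotropic glutamate receptor genes, Grik2 was higher (0.38) and Gria3 lower (-0.33). In GABA and glycine synthesis and transport 2 of 12 were lower, Gad1 (-0.24) and the transporter Slc6a11 (-1.46), the second with a correlation of 0.95 with Tcf7l2 at 5 weeks and a fold change near 0 with the covariates. Of 18 serotonin, acetylcholine, dopamine and adrenergic receptor genes, Chrm2 (-1.24) and Chrm3 (-1.49) were lower, and both had a correlation above 0.9 with Tcf7l2 at 5 weeks.

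At the synaptic vesicle, 4 of 44 tested genes were higher and 5 lower, around a median of 0.01. Over all genes tested, 2.07% were called higher and 3.69% lower. With Synpr, the vesicle glycoproteins Sv2b and Sv2c and the priming factor Unc13c were higher. Sv2b measured 50.6, 57.1 and 60.6 FPKM in WT and 76.0, 73.1 and 78.1 FPKM in KI (log2 fold change 0.44 ± 0.07 SE, limma adjusted p = 0.0141). Doc2b, a calcium sensor of release, measured 27.7, 30.4 and 31.7 FPKM in WT and 20.6, 21.1 and 20.0 FPKM in KI (log2 fold change -0.54 ± 0.06 SE, adjusted p = 0.00424). Synpr and Doc2b were the members called with the log2 covariate. Syt7 (-0.29) was lower, as were Syt6, Doc2a and the vesicular glutamate transporter Slc17a6, which each had a correlation above 0.9 with Tcf7l2 at 5 weeks. Of 13 neuropeptide genes 4 were lower. Cck, cholecystokinin, measured 54.3, 55.5 and 61.9 FPKM in WT and 27.9, 32.9 and 27.8 FPKM in KI (log2 fold change -0.95 ± 0.08 SE, adjusted p = 0.00225). Npy measured 20.6, 21.0 and 22.5 FPKM in WT and 12.6, 14.1 and 13.6 FPKM in KI (log2 fold change -0.67 ± 0.06 SE), and Agt, angiotensinogen of astrocytes, was lower by a log2 fold change of -0.45. With Sst these made the 4. With the covariates Npy was at -0.05 and -0.16 and Cck at -0.72 and -0.76, and 0 and 1 of the 12 neuropeptide genes in the fit were called, around medians of -0.02 and 0.03. Th, tyrosine hydroxylase, measured 5.29, 4.52 and 4.31 FPKM in WT and 2.24, 1.95 and 2.36 FPKM in KI (log2 fold change -1.07 ± 0.11 SE, adjusted p = 0.00347).

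Interferon-stimulated genes were higher in KI cerebellum, at low levels. These genes are switched on when interferon or a nucleic acid sensor activates their transcription factors, and many carry an interferon-stimulated response element in the promoter. Of 37 tested, 34 had a positive log2 fold change (median 0.32, against 0.01 over all genes tested). All KI libraries lay above all WT libraries in 16, against 17.1% of all genes tested. Called were 9, all higher, against 2.07% of all genes tested. With any 1 library left out, 2 to 12 members were called, the most without WT replicate 1, and 2 or 3 without a KI library. The promoters of 3 of these are shown because the window before the start holds the motif of that element. Each is the 130 bases before the transcription start of the RefSeq annotation (GRCm38.p6), 5′ to 3′ on the strand of the gene, and capitals mark each match to 2 copies of GAAA 2 bases apart, read on both strands, with overlapping matches run together. The Isg15 window is chr4:156200819-156200948 (minus strand), that of Ifit1 is chr19:34640759-34640888 (plus strand) and that of Rsad2 is chr12:26456453-26456582 (minus strand).
Isg15: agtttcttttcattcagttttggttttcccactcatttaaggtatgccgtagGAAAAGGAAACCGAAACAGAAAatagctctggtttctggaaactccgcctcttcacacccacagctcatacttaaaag
Ifit1: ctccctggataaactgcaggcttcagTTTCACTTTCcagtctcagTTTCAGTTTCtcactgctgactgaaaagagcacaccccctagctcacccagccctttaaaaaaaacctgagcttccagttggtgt
Rsad2: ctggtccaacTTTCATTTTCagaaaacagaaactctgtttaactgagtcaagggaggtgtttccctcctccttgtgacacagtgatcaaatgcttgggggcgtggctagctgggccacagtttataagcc

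Isg15, a ubiquitin-like protein, measured 2.95, 1.95 and 1.73 FPKM in WT and 3.79, 4.01 and 3.88 FPKM in KI (log2 fold change 0.83 ± 0.18 SE, limma adjusted p = 0.0397). Ifit1, which binds foreign RNA caps, measured 1.83, 1.12 and 1.07 FPKM in WT and 2.67, 2.63 and 2.15 FPKM in KI (log2 fold change 0.88 ± 0.20 SE, adjusted p = 0.0488). Rsad2, the antiviral enzyme viperin, measured 0.743, 0.526 and 0.455 FPKM in WT and 1.13, 1.05 and 1.08 FPKM in KI (log2 fold change 0.84 ± 0.18 SE, adjusted p = 0.0397). In these 3 genes WT replicate 1 was the highest WT library and still lay below every KI library. Irf7, the transcription factor that amplifies the response, measured 1.32, 0.824 and 0.864 FPKM in WT and 2.35, 2.54 and 1.92 FPKM in KI, 2.18-fold higher in KI (log2 fold change 1.12 ± 0.19 SE, adjusted p = 0.0190). Usp18, a protease that removes Isg15, measured 0.638, 0.725 and 0.567 FPKM in WT and 1.13, 1.24 and 1.04 FPKM in KI (log2 fold change 0.74 ± 0.14 SE). Parp12 measured 5.19, 4.78 and 5.33 FPKM in WT and 8.59, 7.33 and 8.12 FPKM in KI (log2 fold change 0.64 ± 0.08 SE, adjusted p = 0.00673). With the log2 covariate 4 were called (among them Irf7, Usp18 and Parp12), and with the linear covariate 4 (Irf7, Isg15, Ifit1 and Parp12), all higher. Many of these genes are low, near 1 FPKM, where the added 0.1 FPKM understates a fold change.

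Also called were Mndal and Ifi203, neighbouring paralogs of the interferon-inducible p200 family that the table places at the same locus (chr1:173778046-173942641, mm10). Mndal measured 1.27, 0.866 and 0.969 FPKM in WT and 3.82, 4.05 and 4.09 FPKM in KI (log2 fold change 1.86 ± 0.14 SE, limma adjusted p = 0.00177), and was the largest increase of the comparison. Ifi203 measured 0.930, 0.726 and 0.784 FPKM in WT and 1.99, 2.40 and 1.61 FPKM in KI (log2 fold change 1.19 ± 0.17 SE, adjusted p = 0.0110). Reads can be shared between them, so their separate values are uncertain. Their promoters are shown because they share sequence. Over 250 bases before to 50 after the start, which reaches past the windows printed, the longest identical run was 139 bases. The windows are chr1:173942493-173942622 for Ifi203 and chr1:173880188-173880317 for 1 of the starts of Mndal, both on the minus strand.
Ifi203: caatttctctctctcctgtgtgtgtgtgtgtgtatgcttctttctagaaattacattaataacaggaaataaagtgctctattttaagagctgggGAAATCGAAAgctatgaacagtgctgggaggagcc
Mndal: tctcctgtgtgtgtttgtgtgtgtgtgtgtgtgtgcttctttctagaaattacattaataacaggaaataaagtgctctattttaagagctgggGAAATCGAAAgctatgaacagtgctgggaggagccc
At 5 weeks a merged entry for both genes measured 1.69, 2.51 and 2.21 FPKM in WT and 3.78, 3.26 and 5.57 FPKM in KI, without overlap (log2 fold change 0.93 ± 0.22 SE, limma adjusted p = 0.975).

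Over all genes with a promoter in RefSeq, taken as 250 bases before to 50 after each start, 1079 of 27025 (3.99%) held 2 copies of GAAA 2 bases apart. A gene was counted if any of its promoters had a match. Among tested interferon-stimulated genes with a promoter listed it was 16 of 29 (55.2%), and among those called 5 of 7. Among all called increases with a promoter it was 9 of 188 (4.79%) and among called decreases 13 of 339 (3.83%), close to the 3.56% of tested genes. The Capicua octamers TGAATGAA and TGAATGGA, searched on both strands, were counted in the same way. They were held by 2.85% of all genes with a promoter, 1.84% of those tested, 2.13% of called increases and 2.65% of called decreases. These letters are a description of the sequence and not evidence of binding.

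**Figure D3:**
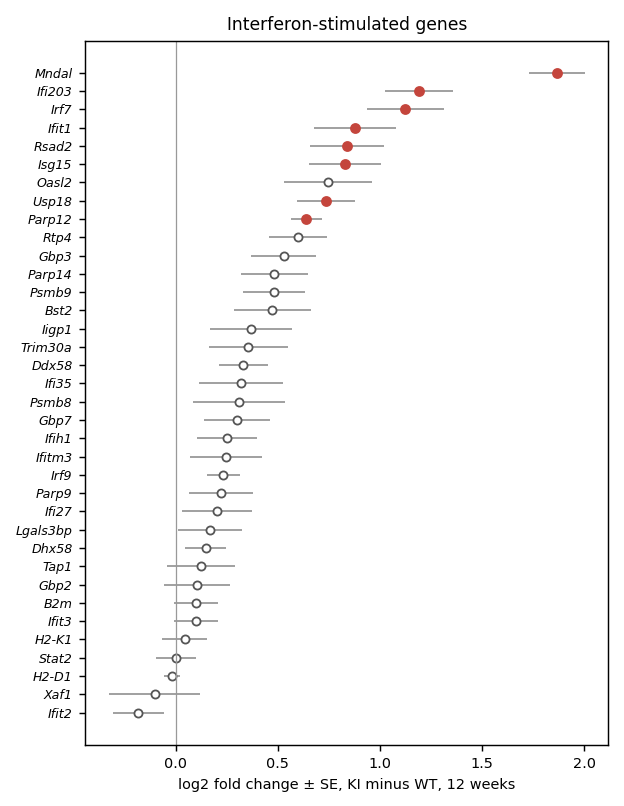
Log2 fold change (KI minus WT, 12 weeks) ± SE of 36 interferon-stimulated genes, filled where the limma adjusted p was below 0.05. The 8 filled points run from Parp12 at 0.64 to Mndal at 1.86, and 3 genes (Ifit2, Xaf1 and H2-D1) lie below 0.

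Genes tied directly to ataxin-1 were called about as often as all genes (5.76%). Of 16 tested genes for ataxin-1 and its partners, Tcf4 alone was called, at 48.8, 58.3 and 54.8 FPKM in WT and 66.8, 66.9 and 65.6 FPKM in KI (log2 fold change 0.30 ± 0.06 SE, limma adjusted p = 0.0382), and it was near 0 with either covariate (-0.0072 and -0.036). Capicua itself, Cic, had a log2 fold change of -0.08. Of 12 Capicua target genes, 11 had a positive log2 fold change (median 0.22) and 2 were called, beside 2.07% of all genes called higher. At 5 weeks 4 of the 12 were positive (median -0.05). With the log2 covariate 11 were positive and with the linear one 8. Leaving out 1 library gave 0 to 2 called members. Ccnd1, cyclin D1, measured 11.0, 12.1 and 12.8 FPKM in WT and 18.5, 16.5 and 16.9 FPKM in KI (log2 fold change 0.53 ± 0.07 SE, adjusted p = 0.00987) and was called with both covariates. Spry2, a feedback inhibitor of receptor tyrosine kinases, measured 21.5, 22.9 and 21.6 FPKM in WT and 25.1, 25.1 and 25.4 FPKM in KI (log2 fold change 0.20 ± 0.04 SE). No immediate early gene of 20 tested was called in limma (median 0.07, 3 at an unadjusted p under 0.05), and 2 of 24 cholesterol synthesis genes were, Msmo1 (-0.40) and Cyp51 (-0.28), both lower.

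Markers of other cell types differed as well, beside 2.07% of all genes called higher and 3.69% called lower. All 15 granule cell genes had a positive log2 fold change (median 0.17), but with the covariates 10 and 11 of them were negative (medians -0.19 and -0.25). Pax6 was called at 25.9, 36.0 and 33.2 FPKM in WT and 44.7, 43.0 and 45.2 FPKM in KI (log2 fold change 0.50 ± 0.11 SE, limma adjusted p = 0.0434). WT replicate 1 had the lowest granule cell sum, 1487 FPKM, against 2063 to 2188 FPKM in the other 5 libraries. Among 5 unipolar brush cell genes Calb2 alone was called, and among 12 molecular layer and Golgi interneuron genes Gad1 alone was. Of 17 astrocyte and Bergmann glia genes, Aldoc (-0.64), Gja1 (-0.39), Aqp4 (-0.28) and Aldh1l1 (-0.26) were lower. Of 21 oligodendrocyte genes, 20 had a negative log2 fold change (median -0.39), and Cldn11 (-0.60), Mal (-0.53), Ugt8a (-0.46) and Cnp (-0.23) were lower. Their sum was 2538 to 3712 FPKM in WT, highest in WT replicate 1, and 2229 to 2274 FPKM in KI, and no member was called with either covariate, although Ugt8a had -0.48 and -0.39 there. Between 0 and 14 oligodendrocyte genes were called when 1 library was left out, with 11 without WT replicate 1 and 0 without any KI library. No gene was called in limma among 19 for microglia (median -0.22, 5 at an unadjusted p under 0.05), 15 for blood vessels (-0.02, with 0), 16 for choroid plexus (-0.79, with 0), 14 for leptomeningeal fibroblasts (-0.01, with 0) or 4 for erythrocytes (-0.51, with 1). For neurons of the brainstem and midbrain 5 of 28 genes could be tested, and Sst, Slc17a6 and Th were called, all lower. The part of these markers in the gene changes above was not tested.

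**Figure D4:**
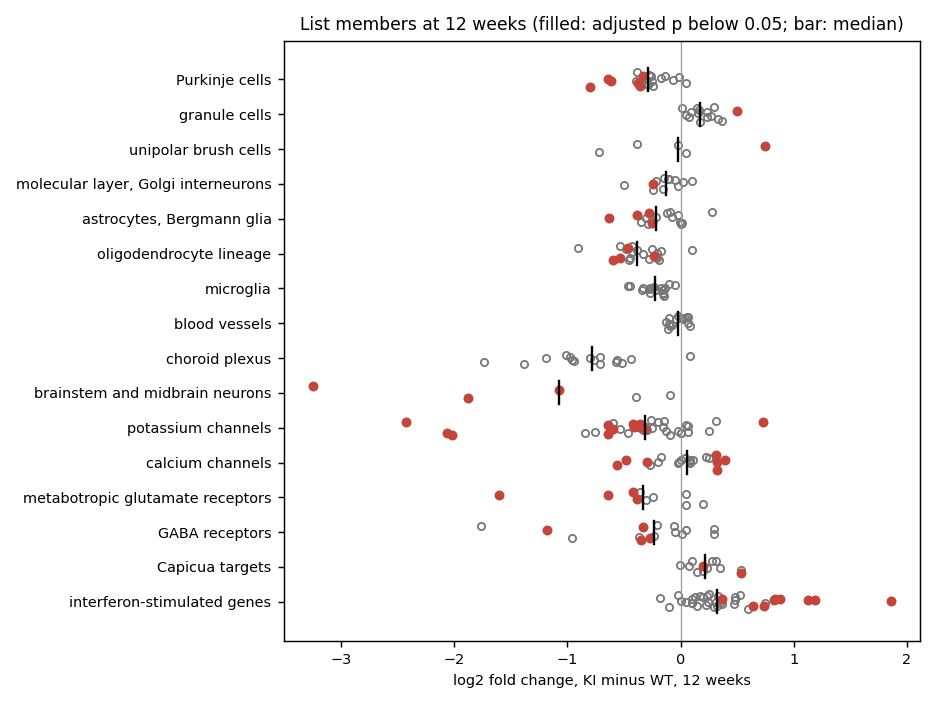
Log2 fold change (KI minus WT, 12 weeks) of each tested member of 16 gene lists, filled where the limma adjusted p was below 0.05, with a bar at each list's median. Purkinje cell genes lie mostly below 0 (median -0.29), interferon-stimulated genes mostly above 0 (median 0.32), and brainstem and midbrain neuron genes reach the lowest values.

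The 5-week libraries, none of which enter the 12-week fit, mostly had the same direction at smaller size for the genes called at 12 weeks. Of 268 called increases measured at 5 weeks, 241 had a positive log2 fold change there, with a median of 0.10 against 0.35 at 12 weeks. Of 479 called decreases, 365 were negative at 5 weeks, with a median of -0.11 against -0.48. These genes were chosen by their 12-week test, so the smaller size at 5 weeks is partly built in and is not read as a result. An unadjusted p below 0.05 in the same direction was reached by 40 of the increases and 103 of the decreases. Over all genes tested, 7555 of 12832 had the same sign at both ages and 414 of these reached that p at 5 weeks. Of the decreases with a correlation under 0.9 with Tcf7l2, 327 of 375 were negative. Mdfi measured 9.62, 11.3 and 9.99 FPKM in WT and 7.01, 6.85 and 4.76 FPKM in KI at 5 weeks (log2 fold change -0.74 ± 0.15 SE). Pcp4 measured 1081, 1202 and 1153 FPKM in WT and 896, 926 and 1032 FPKM in KI (log2 fold change -0.27 ± 0.09 SE). Grm4 differed at 5 weeks by -0.63 ± 0.09 SE and Gabbr2 by -0.32 ± 0.06 SE, close to their 12-week values of -0.64 and -0.33. Neither passed the adjusted test at 5 weeks.

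No gene passed the test of the difference between the ages. In limma over both tables, 0 of 12832 genes were called for age by genotype, and 914 had an unadjusted p below 0.05. With the log2 covariate 0 were called and 332 had an unadjusted p below 0.05. The Synpr difference grew by 0.49 ± 0.08 SE on the log2 scale from 5 to 12 weeks (adjusted p = 0.315), and that of Kctd12 by -0.43 ± 0.08 SE (adjusted p = 0.532). The count of 764 at 12 weeks against 1 at 5 weeks is therefore a difference in calls and is not shown to be a difference in effect for any 1 gene.

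**Figure D5:**
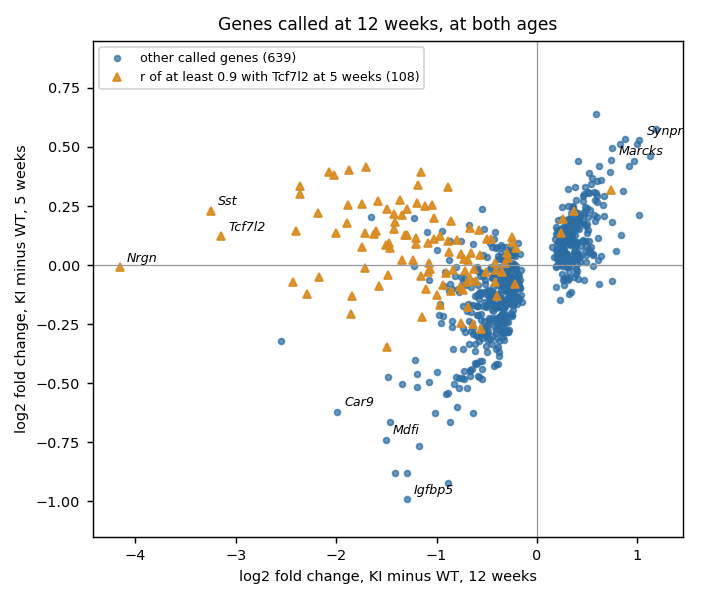
Log2 fold change (KI minus WT) at 5 weeks against that at 12 weeks for the genes called at 12 weeks and measured at both ages, with triangles for those with a correlation of at least 0.9 with Tcf7l2 at 5 weeks. Most circles lie in the quadrants of equal sign with smaller values at 5 weeks, as Igfbp5 at -0.99 and -1.30, while the triangles of largest decrease, among them Nrgn at -0.01 and -4.16, lie near 0 at 5 weeks. The genes were chosen by their 12-week test, so smaller 5-week values are partly built in.

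A few of these genes can be set beside the other 12-week tissues of the series, each with its own controls. Igfbp5 had a log2 fold change of -1.01 ± 0.06 SE in cerebellum of ATXN1-82Q Tg mice, in which a Purkinje cell promoter drives the human protein, and of -0.61 ± 0.10 SE in the inferior olive of KI mice (limma adjusted p = 8.9e-05 and 0.0344). Pcp4 had -1.26 ± 0.09 SE and -0.43 ± 0.04 SE in the same order, and Cck -1.29 ± 0.07 SE and -1.01 ± 0.09 SE. Plcb3 had -1.38 ± 0.11 SE in transgenic cerebellum and -0.03 ± 0.06 SE in the inferior olive. Irf7 had -0.32 ± 0.26 SE in transgenic cerebellum and 1.34 ± 0.13 SE in the inferior olive of KI mice (adjusted p = 0.512 and 0.00311). Synpr had 0.12 ± 0.13 SE and -0.11 ± 0.07 SE. The differences between tissues or models were not tested.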

How the data were processed

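Cerebella of male mice were dissected and flash frozen, the same individual making all dissections, and poly-A RNA was sequenced as 75 bp paired-end reads. Per the study's methods, the authors aligned reads with TopHat2 2.1.0 to mm10 and quantified them with Cufflinks 2.2.1, Cuffdiff and Cuffnorm. The deposited values are FPKM per gene and library, normalized by the authors within each table, so differences were taken only within a table. The tables also hold the authors' own Cuffdiff fold changes, p-values and q-values, which were not used. No per-sample column was left unused (0).

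Each symbol was taken once, from its entry of highest mean. Entries without a symbol (12.77% at 12 weeks) and 25 symbols turned into dates were left out of the tests. Genes averaging 0.5 FPKM or more in KI as well as in WT entered limma 3.58.1 (R 4.3.3, moderated test with trend), fitted to log2 of FPKM plus a pseudocount of 0.1. P-values were adjusted by Benjamini-Hochberg, and genes with an adjusted p under 0.05 are termed called. A fold change on this scale understates changes of low genes. The test was checked on simulated data with 200 changed genes. Noise was drawn separately for each gene and the simulated covariate was random. The check therefore does not cover deviations that genes share within a library, or a covariate that differs between genotypes. FPKM hold no read totals, so no counting interval is given, and with 3 libraries a group the precision is limited by their number. Per the study's methods the 3 libraries of a genotype came from 3 male mice.

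Genes were named by a rule: Atxn1, the 12 largest decreases and 8 largest increases among called genes that reached 1 FPKM in the higher group without overlap, up to 4 called members of each list, and genes called at both ages. Other genes, the genes called under every setting, the 32 genes varying with Tcf7l2, the covariate fits and the zebrin genes were chosen after values were seen. Members and lists were chosen with earlier results of these data known, so list counts are descriptions. Of 631 list entries 627 were found and 518 tested. Alternatives were other pseudocounts, filters, scaling, fits without trend, a replicate block and leaving out each library. A few genes are not reported here. Promoters came from RefSeq (GRCm38.p6).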

Additional observations from a re-analysis of the deposited data

Results flagged for a closer look

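Entries to which the tables give no gene symbol stayed outside the comparison. Fitted by themselves in the same way, 20 of 569 such entries that averaged 0.5 FPKM or more in KI and in WT were called at 12 weeks in limma (3.51%), 9 higher and 11 lower in KI, against 5.76% of the genes with a symbol. They are given here because a difference appeared in data that the comparison did not use.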

How the results depend on the processing

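Under pseudocounts of 0.01 and 1, filters of 2 FPKM or of 0.5 FPKM in any group, no filter, and rescaling to a common median, between 677 and 909 genes were called at 12 weeks, within 1.5 times of 764. Without the variance trend 434 were called. Leaving out 1 library gave 104 to 1225 calls (1225 without WT replicate 1, 197 without WT replicate 3, and 104, 128 and 129 without KI replicates 1, 2 and 3). The 12-library fit gave 370 calls, and 62 with the log2 covariate and 141 with the linear covariate, which were added after seeing the data. The share of called genes that were higher in KI was 36% in the main fit, and 17.7% and 18.4% with the covariates. Across leave-one-out fits 95 genes (18 higher, 77 lower) were called each time. The cause of these differences was not tested. Each fit without a library has fewer samples, and the number called fell in some of these fits and rose in others.

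Replicate numbers do not mark shared litters or days in the labels, and libraries with the same number did not deviate together at 12 weeks (correlations -0.053, 0.075 and -0.15) or at all numbers at 5 weeks (0.463, 0.034 and 0.185). With the replicate block 291 genes were called (72 higher, 219 lower) at 12 weeks, 1 at 5 weeks and 0 for age by genotype.

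At 5 weeks the 1 call (Igfbp5) became 0 with the 0.5 FPKM filter in any group, without a filter, after rescaling and without the trend, and 0 to 1 when a library was left out. For age by genotype, 0 became 1 without KI replicate 3 of 5 weeks or without WT replicate 2 of 12 weeks. Of the named genes, those that changed sign with the log2 and the linear covariate were Atxn1 (-0.17 and -0.15), Asic4 (0.27 and 0.16), Slc6a11 (0.026 and 0.092), Scn3b (0.17 and 0.17), Doc2a (0.16 and 0.16), Syt6 (0.33 and 0.28) and Tcf4 (-0.0072 and -0.036), and Camkv did so with the log2 covariate only (0.25). No named gene changed sign under another filter, pseudocount or scaling, without the trend, with the block or without a library. Called members of the lists moved by over 1.5 times for 20 of 29 lists without any 1 of the KI libraries, and for 13, 9 and 18 of 29 without WT replicates 1, 2 and 3. Asic4 and Camkv belong to the 32 genes behind the covariate.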

Other observations

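Purkinje cells fall into stripes that differ in zebrin II, the product of Aldoc. The genes below were looked at after their values were seen. Aldoc itself, also abundant in astrocytes, measured 987, 952 and 1001 FPKM in WT and 646, 619 and 627 FPKM in KI cerebellum at 12 weeks (log2 fold change -0.64 ± 0.04 SE, limma adjusted p = 0.00148). Plcb3, found in the same stripes, was lower by a log2 fold change of -0.89 ± 0.07 SE, and the glutamate transporter Slc1a6 did not pass the test at -0.29 ± 0.07 SE (adjusted p = 0.0534). Of genes of the complementary stripes, Plcb4 measured 74.8, 92.7 and 85.4 FPKM in WT and 82.8, 82.8 and 82.7 FPKM in KI, with a log2 fold change of -0.02 ± 0.07 SE. The transcription factor Ebf2 had a log2 fold change of -0.42 ± 0.09 SE (limma adjusted p = 0.0445). Between the phospholipase C genes, Plcb3 and Plcb4, the groups overlapped for Plcb4 and not for Plcb3. The difference between the stripes' genes was not tested.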
